A study of Mus musculus with 9 samples.

Results

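The 9 genes described here are Glul, Oat, Slc1a2, Rhbg, Slc13a3, Rgn, Cdo1, Lect2 and Tbx3, out of 32137 genes in the count files. They are genes known from the pericentral zone of the liver, the hepatocytes around the central vein, and were found by gene name. Of these, 7 were taken for their known zonation, and Lect2 and Cdo1 were added because they were higher in the Rspo1 libraries of these same data. The contrasts with untreated cells are therefore a description for Lect2 and Cdo1, without a test. The question was whether Rspo1 (R-spondin 1), a secreted enhancer of the Wnt pathway, turns on hepatocyte zonation genes in cells of duct origin.

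RNA was sequenced from sorted cells of differentiated bile duct organoids, which are cultures grown from the biliary epithelium. All organoids came from 1 male mouse of mixed genetic background with the genotype Axin2CreERT2+/-; R26-LSL-tdTom+/-. In this animal a tamoxifen-activated Cre is expressed from Axin2, itself a Wnt target gene, and switches on the red reporter tdTom. Every culture had 2 to 4 days of expansion and 11 days of differentiation, and in the last 24 h every culture also received 3 uM dexamethasone and 500 nM 4-OHT, the active form of tamoxifen. The 3 groups were tdTom-negative cells without Rspo1 (untreated), tdTom-negative cells after 100 ng/ml Rspo1 in those 24 h (Rspo1-negative) and tdTom-positive cells after the same Rspo1 (Rspo1-positive). There were 3 libraries in each group, replicates 1, 2 and 3, made at organoid passages 5, 6 and 10. No group held tdTom-positive cells without Rspo1, so the reporter gate and Rspo1 cannot be told apart when Rspo1-positive and untreated cells are compared. Because the libraries come from 1 animal, their spread is that of repeated cultures and not of animals.

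Total counts were 23423979 to 37351448 per library. The 7 biliary markers were detected in every group, at a summed level of 6669 to 8416 CPM (counts divided by the scaled size of the library) in untreated, 6625 to 8702 in Rspo1-negative and 5690 to 5803 in Rspo1-positive cells. By edgeR, Cftr (1.59, adjusted p = 0.00414) and Sox9 (1.31, adjusted p = 0.0412) were called higher and Krt19 lower (-1.06, adjusted p = 0.0127) in Rspo1-positive cells against untreated cells, and Sox9 higher in Rspo1-negative cells (1.05, adjusted p = 0.0381). The passage block raised the Rspo1-positive count of biliary genes to 3 higher, beside the 1 lower. Between the gates Cftr was called higher (1.51, edgeR adjusted p = 0.00319) and Krt19 lower (-0.78, edgeR adjusted p = 0.0196) in the Rspo1-positive group, with 1 more lower under the block and no call with an offset for GC content and length. The hepatocyte list summed to 398 to 810, 482 to 790 and 365 to 532 CPM, mostly from Ttr and the transcription factors Hnf4a and Cebpa. None of its 8 tested genes was called by edgeR in the 3 group comparisons, where 3, 1 and 1 had an unadjusted p under 0.05 for Rspo1-positive against untreated, Rspo1-negative against untreated and the 2 Rspo1 groups. DESeq2 called 1, 0 and 0 of them, and edgeR with passage as a block called 2 (all lower), 3 (1 higher) and 4 (1 higher). Alb was counted in every library, at means of 12.9 CPM in untreated, 9.86 in Rspo1-negative and 6.29 in Rspo1-positive cells. Cyp3a11, a defining gene of mature hepatocytes, had no count in untreated and Rspo1-negative cells. Markers of mesenchyme and endothelium stayed at or below 0.892 and 0.812 CPM in sum. The immune list summed to 45.5 to 68.1 CPM over the libraries, mostly from Csf1r and Cd68, and neither was called between groups by edgeR or DESeq2 or had an unadjusted p under 0.05. The fit with the passage block called 1 lower in Rspo1-positive cells against each other group. The proliferation list rose with Rspo1, with 5 of 6 genes (6 with passage as a block) called in Rspo1-positive and 3 of 6 (5 with the block, 2 with the GC and length offset) in Rspo1-negative cells against untreated cells, and summed to 106 to 169, 242 to 271 and 545 to 716 CPM. Of all tested genes, edgeR called 5.21% in Rspo1-positive (3.07% higher) and 21.9% in Rspo1-negative cells (8.0% higher) against untreated cells. Between the gates it called 24.3%. With passage as a block the shares called were 13.2%, 35.5% and 38.9% in the same order. The part of the marker genes in the results below was not tested. In bulk samples such as these, fewer cells of a type and less RNA per cell cannot be told apart.

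In the liver lobule, Wnt ligands and R-spondins released around the central vein keep beta-catenin active in the nearest hepatocytes, which then express a set of genes that periportal hepatocytes lack. Much of that set handles nitrogen: glutamine synthetase takes up the last ammonium before the blood leaves the lobule, and its substrates are supplied by neighbouring enzymes and transporters. Bile duct cells do not normally run this programme.

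Promoter windows from 250 bases before to 50 bases after an annotated start were available for 5 members (RefSeq, GRCm38.p6), and 3 are shown because their genes gave the plainest contrast: Lect2, which was higher in all Rspo1 libraries, Slc1a2, which varied with passage, and Glul, the classic pericentral gene. The core letters bound by TCF and LEF factors, CTTTGAA or CTTTGAT, were searched on both strands and are printed in capitals as they read on the gene's strand. A match was found in 2 of the 5 windows, beside 8.65% of the 32851 windows of 300 bases in the table. The window of Lect2 is chr13:56548489-56548788 on the minus strand, with its match starting 32 bases before the start site. The window of Slc1a2 is chr2:102706188-102706487 on the plus strand, with its match 207 bases before a start that lies inside the annotated gene. The window of Glul is chr1:153899679-153899978 on the plus strand and holds no match. The windows of Oat and Slc13a3, which are not shown, hold no match either. A match is a description of letters and not a binding site.
Lect2: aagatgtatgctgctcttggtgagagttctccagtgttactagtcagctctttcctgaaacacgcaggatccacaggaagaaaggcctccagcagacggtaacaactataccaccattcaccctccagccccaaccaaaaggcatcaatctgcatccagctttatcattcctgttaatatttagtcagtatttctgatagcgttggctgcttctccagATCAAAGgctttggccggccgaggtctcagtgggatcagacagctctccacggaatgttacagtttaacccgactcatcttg
Slc1a2: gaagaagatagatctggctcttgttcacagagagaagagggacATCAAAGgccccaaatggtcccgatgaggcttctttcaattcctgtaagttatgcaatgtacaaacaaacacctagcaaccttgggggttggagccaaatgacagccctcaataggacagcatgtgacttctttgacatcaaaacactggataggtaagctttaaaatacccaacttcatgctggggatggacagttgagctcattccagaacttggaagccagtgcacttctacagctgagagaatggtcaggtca
Glul: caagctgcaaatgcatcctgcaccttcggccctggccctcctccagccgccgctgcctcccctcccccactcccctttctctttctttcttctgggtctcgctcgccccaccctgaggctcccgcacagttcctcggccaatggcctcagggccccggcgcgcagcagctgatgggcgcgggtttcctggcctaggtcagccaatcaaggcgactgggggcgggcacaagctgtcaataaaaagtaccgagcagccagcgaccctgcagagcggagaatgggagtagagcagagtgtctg

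Of the 9 genes, 6 had enough reads to be tested, among 17011 genes that passed the filter on low counts. Glul, Oat and Slc1a2 reached the filter's minimum in every library, and Cdo1 was above it throughout. Lect2 passed through its Rspo1 libraries only, since none of the 3 untreated libraries reached the minimum of 0.308 CPM, and Rgn reached it in 2 of 3 untreated libraries and in all Rspo1 libraries. Tbx3, Rhbg and Slc13a3 did not pass and are described by their counts.

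Lect2, a secreted protein made mainly by hepatocytes, went from a trace to a low but regular level with Rspo1. Lect2 (ENSMUSG00000021539, chromosome 13, 56542464 to 56548502, GRCm38) had 3, 5 and 2 counts in untreated cells at passages 5, 6 and 10. It had 57, 59 and 40 counts in Rspo1-negative cells and 109, 79 and 85 in Rspo1-positive cells. As CPM these were 0.0923, 0.167 and 0.0576 in untreated, 1.52, 2.43 and 1.69 in Rspo1-negative, and 2.68, 2.67 and 2.38 in Rspo1-positive cells. All 6 Rspo1 libraries lay far above all 3 untreated libraries, while the Rspo1-positive and Rspo1-negative libraries overlapped. The log2 fold change was 4.58 (SE 0.41) in Rspo1-positive and 4.12 (SE 0.41) in Rspo1-negative cells against untreated cells. The ratio of summed counts was 25.0 (95% interval for counting error only, 13.4 to 52.8) and 17.7 (9.38 to 37.7). The intervals do not allow for the choice of Lect2 by its rise in these same libraries, so they are not a test of that rise. These ratios rest on 10 untreated counts in all, and leaving out the untreated library of passage 6, which holds the most of them, moved the log2 fold changes to 5.04 and 4.58. Between the gates the log2 difference was 0.46 (SE 0.31) in favour of Rspo1-positive cells. On the length-scaled FPKM scale Lect2 averaged 0.124 in untreated, 2.26 in Rspo1-negative and 3.04 in Rspo1-positive cells, so even with Rspo1 it stayed a weakly expressed gene.

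Cdo1, cysteine dioxygenase, which commits cysteine to oxidation and taurine synthesis, was also several times higher in both Rspo1 groups than in untreated cells. Cdo1 (ENSMUSG00000033022, chromosome 18) stood at 1.72, 3.81 and 2.02 CPM in untreated cells at passages 5, 6 and 10. It stood at 17.0, 21.8 and 18.9 CPM in Rspo1-negative and at 18.1, 22.9 and 16.3 CPM in Rspo1-positive cells. The gap to untreated cells was seen at each passage, with Rspo1-negative to untreated ratios of 9.88, 5.72 and 9.37 and Rspo1-positive to untreated ratios of 10.5, 6.02 and 8.10. The ratios of passage 6 were the smallest, and its untreated library was the highest of the 3. The log2 fold change was 2.93 (SE 0.29) in Rspo1-positive and 2.94 (SE 0.29) in Rspo1-negative cells, and the 2 Rspo1 groups differed by -0.01 (SE 0.27). The mean level was 19.1 ± 3.42 CPM in Rspo1-positive and 19.2 ± 2.41 CPM in Rspo1-negative cells (SD, n = 3), and the libraries of the gates overlapped. By FPKM it moved from 1.55 in untreated cells to 12.2 and 11.8 in Rspo1-negative and Rspo1-positive cells.

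**Figure D1:**
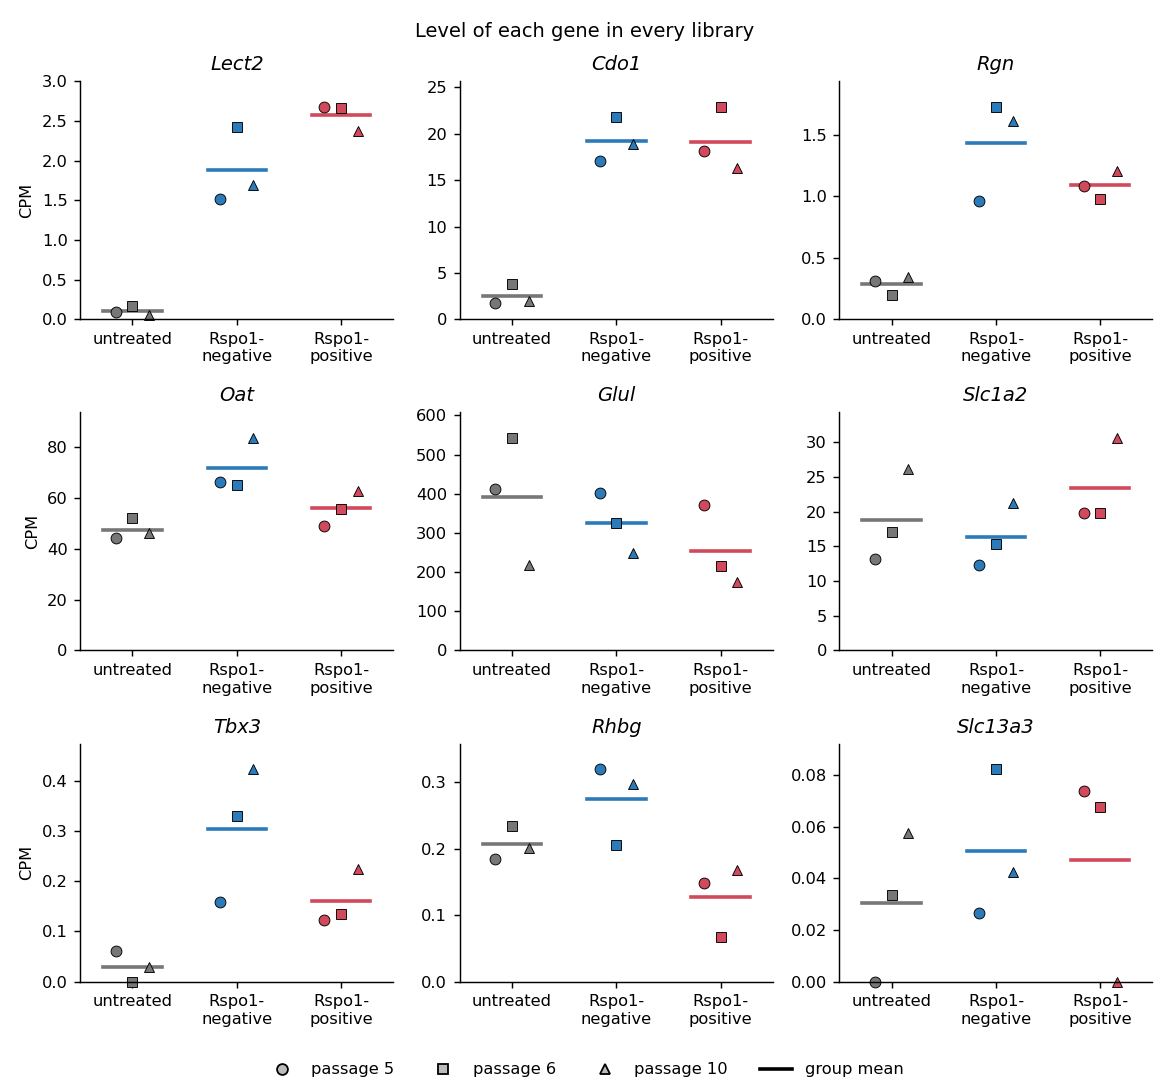
Level of each of the 9 genes in every library, as CPM with TMM-scaled library sizes on each gene's own axis; points are libraries, grouped by treatment and gate, with a symbol for each passage, and horizontal lines are group means (n = 3). Lect2, Cdo1 and Rgn show all 6 Rspo1 libraries above the 3 untreated libraries, while Glul and Slc1a2 show mixed groups and a change along the passages.

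Rgn, regucalcin, a calcium-binding lactonase of hepatocytes, was the only one of the 4 tested zonation members called higher in both Rspo1 groups. Rgn (ENSMUSG00000023070, chromosome X, 20549787 to 20562089) had 10, 6 and 12 counts in untreated, 36, 42 and 38 in Rspo1-negative and 44, 29 and 43 in Rspo1-positive cells. Its level was 0.308, 0.201 and 0.345 CPM in untreated, 0.958, 1.73 and 1.61 CPM in Rspo1-negative and 1.08, 0.978 and 1.20 CPM in Rspo1-positive cells. Every Rspo1 library was above every untreated library, and the 2 Rspo1 groups overlapped. Of all tested genes, 11.4% were higher than untreated without overlap in Rspo1-positive and 16.4% in Rspo1-negative cells. The log2 fold change was 1.91 (SE 0.38, edgeR adjusted p = 0.0156) in Rspo1-positive and 2.30 (SE 0.38, edgeR adjusted p = 0.00317) in Rspo1-negative cells against untreated cells. The gates did not differ beyond their error (-0.38, SE 0.34, edgeR adjusted p = 0.447). The call in Rspo1-positive cells was lost without the Rspo1-positive library of passage 10 (1.84, adjusted p = 0.0577) and without the untreated library of passage 5 (1.97, adjusted p = 0.0523), by edgeR. Among all 17011 genes, 5.21% were called in Rspo1-positive (3.07% higher) and 21.9% in Rspo1-negative cells (8.0% higher) against untreated cells, beside 1 of 4 and 2 of 4 members. These 2 contrasts share the untreated libraries.

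Oat, ornithine aminotransferase, the mitochondrial enzyme that turns ornithine towards glutamate, was called higher in Rspo1-negative cells. Oat (ENSMUSG00000030934, chromosome 7, 132557478 to 132576398) stood at 44.2, 52.2 and 46.2 CPM in untreated, 66.3, 65.1 and 83.7 CPM in Rspo1-negative and 49.2, 55.9 and 62.7 CPM in Rspo1-positive cells. The Rspo1-negative libraries were all above both other groups, and the Rspo1-positive libraries overlapped the untreated ones. Rspo1-negative libraries lay above untreated ones without overlap in 16.4% of tested genes, and above Rspo1-positive ones in 20.6%. Against untreated cells the log2 fold change was 0.59 (SE 0.15, edgeR adjusted p = 0.0171) in Rspo1-negative and 0.23 (SE 0.14, edgeR adjusted p = 0.465) in Rspo1-positive cells. The rise in Rspo1-negative cells was lost without the Rspo1-negative library of passage 10 (0.50, adjusted p = 0.0576) and without the untreated library of passage 5 (0.55, adjusted p = 0.0633), by edgeR. Between the gates Oat was lower in the Rspo1-positive library at every passage, by -0.36 (SE 0.14, edgeR adjusted p = 0.0954), and this passed the test with passage as a block (adjusted p = 0.038). The authors' deposited table lists Oat at -0.38 with an adjusted p of 0.00957 for this comparison.

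**Figure D2:**
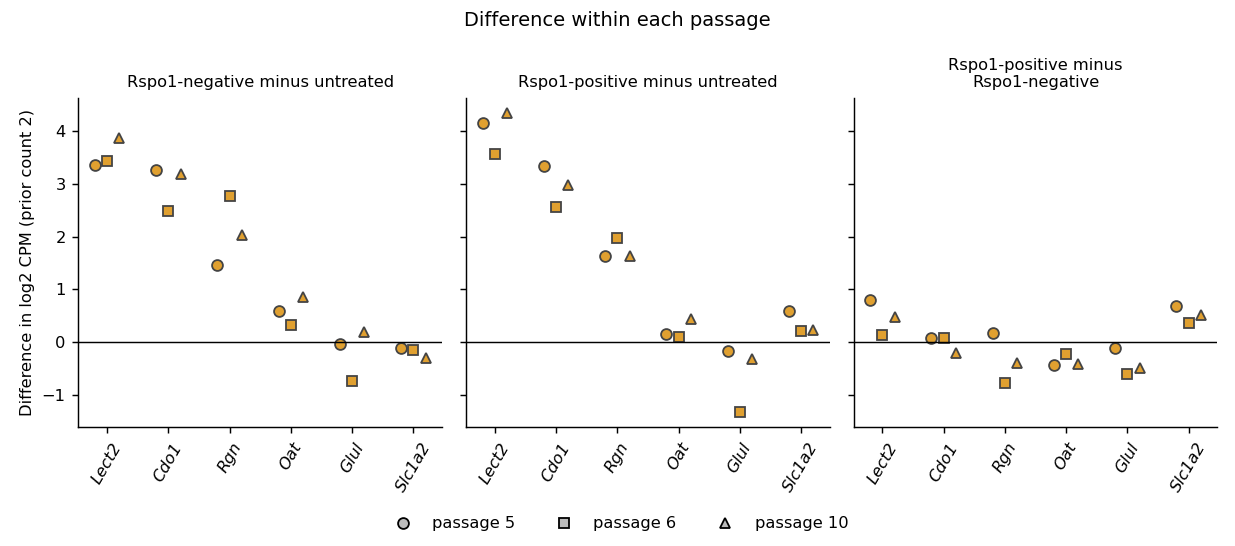
Log2 difference of each gene between groups at each passage, from log2 CPM with a prior count of 2; the points of a gene are passages 5, 6 and 10, and the line at 0 marks no difference. Lect2, Cdo1 and Rgn lie above 0 at every passage against untreated cells, and Oat lies above 0 there and below 0 between the Rspo1 gates.

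Glul, glutamine synthetase, which joins ammonium to glutamate, was by far the most abundant member and was not called higher with Rspo1. Glul (ENSMUSG00000026473, chromosome 1, 153899944 to 153909723) stood at 413, 543 and 218 CPM in untreated, 401, 326 and 248 CPM in Rspo1-negative and 370, 216 and 176 CPM in Rspo1-positive cells. The groups overlapped in every comparison, and in each group the library of passage 10 was the lowest. The log2 fold change against untreated cells was -0.62 (SE 0.35, edgeR adjusted p = 0.409) in Rspo1-positive and -0.27 (SE 0.35, edgeR adjusted p = 0.625) in Rspo1-negative cells, and -0.36 (SE 0.35, edgeR adjusted p = 0.487) between the gates. In Rspo1-positive cells the point estimate was below 0 at all 3 passages, the adjusted p was 0.0823 with passage as a block, and it reached 0.0384 (-0.67) once GC content and length were also modelled. The authors' deposited table lists Glul as lower in Rspo1-positive cells, by -0.59 against untreated (adjusted p = 0.0225) and -0.42 against Rspo1-negative cells (adjusted p = 0.0034). By mean FPKM Glul stood at 138, 118 and 89.8 in untreated, Rspo1-negative and Rspo1-positive cells, which put it at ranks 430, 588 and 586 among the genes with a value. About 3.49% of its exon bases are shared with Teddm2 on the opposite strand or Mir8114, and the strand setting of the counting was not given in the sources used here.

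Slc1a2, a plasma membrane transporter that takes up glutamate, the substrate of glutamine synthetase, was not called in any group comparison by the main edgeR fit. Slc1a2 (ENSMUSG00000005089, chromosome 2, 102658659 to 102790784) stood at 13.2, 17.1 and 26.1 CPM in untreated, 12.3, 15.4 and 21.3 CPM in Rspo1-negative and 19.9, 19.8 and 30.7 CPM in Rspo1-positive cells. The groups overlapped in all 3 comparisons, and passage 10 was the highest library of each group. The log2 fold change was 0.32 (SE 0.29, edgeR adjusted p = 0.667) in Rspo1-positive and -0.21 (SE 0.29, edgeR adjusted p = 0.656) in Rspo1-negative cells against untreated cells. Rspo1-positive cells were above Rspo1-negative cells at each passage, by 0.53 in the main fit (SE 0.29, edgeR adjusted p = 0.215, and adjusted p = 0.00965 with passage as a block). The authors' deposited DESeq2 table lists Slc1a2 at 0.51 with an adjusted p of 0.00379 for this comparison. That direction did not hold once GC content and transcript length were modelled: the difference between the gates became -0.38 (adjusted p = 0.459), and that between Rspo1-negative and untreated cells became 0.65 (adjusted p = 0.213). Its longest transcript has 11595 bases at 45.3% GC. Over 17001 genes the Rspo1-negative against untreated fold change was related to GC content with a Spearman correlation of 0.496 across genes. The same coefficient was -0.504 for the contrast of the gates and -0.0134 for Rspo1-positive against untreated cells. With transcript length the coefficients were -0.307, 0.311 and 0.00614 for these contrasts in the same order. The offset models GC content and length together, and their parts were not tested. Genes are not independent replicates, so these are descriptions.

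**Figure D3:**
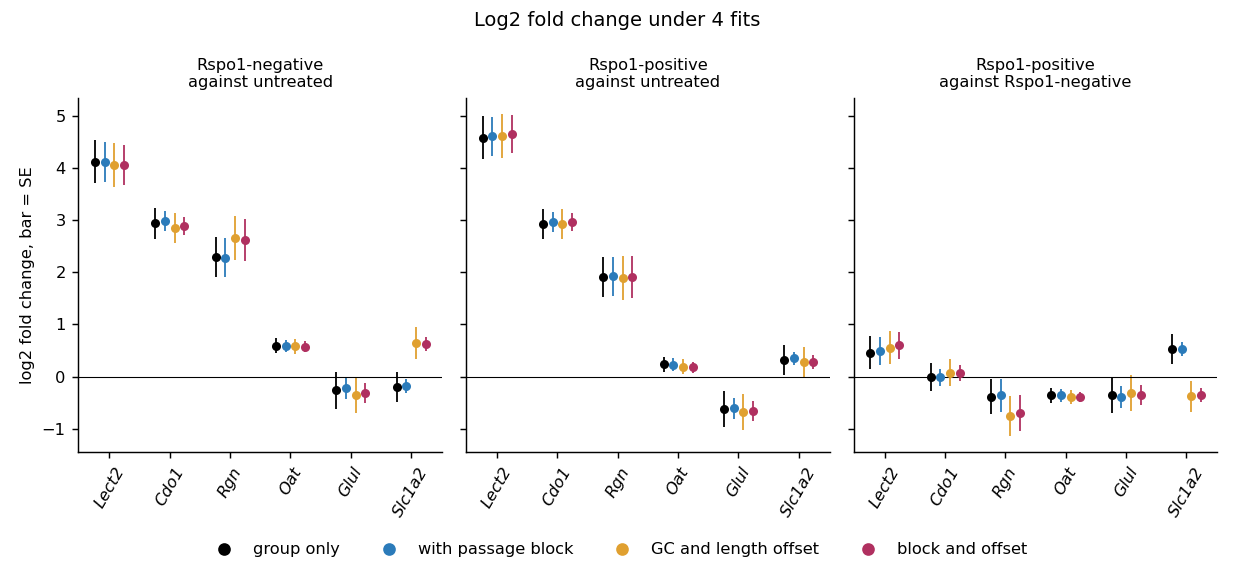
Log2 fold change of the 6 tested members in the 3 group comparisons, with the interval of 1 SE on either side, under 4 fits: group only, with a passage block, with a GC and length offset, and with both. Slc1a2 changes sign with the offset in the Rspo1-negative and gate comparisons, and Lect2, Cdo1 and Rgn stay above 0 against untreated cells in each fit drawn.

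Tbx3, a T-box transcription factor, was near the detection limit. Tbx3 (ENSMUSG00000018604, chromosome 5, 119670669 to 119684724) had 2, 0 and 1 counts in untreated, 6, 8 and 10 in Rspo1-negative and 5, 4 and 8 in Rspo1-positive cells. The Rspo1 libraries of both groups were above all untreated libraries without overlap, against 16.4% and 11.4% of tested genes that were higher without overlap in Rspo1-negative and Rspo1-positive cells. The ratio of its levels was 9.09 (95% counting interval 2.76 to 47.2) for Rspo1-negative and 5.19 (1.50 to 27.7) for Rspo1-positive cells, on only 3 untreated counts. With no filter on low counts, edgeR gave Tbx3 an adjusted p of 0.0196 in Rspo1-negative cells, where 5.19% of 31128 genes were called higher, and 0.284 in Rspo1-positive cells.

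Rhbg, an ammonium transporter, and Slc13a3, a sodium-coupled carrier of dicarboxylates such as succinate, were also sparse. Rhbg (ENSMUSG00000104445, chromosome 3, 88242874 to 88254709) had 6, 7 and 7 counts in untreated, 12, 5 and 7 in Rspo1-negative and 6, 2 and 6 in Rspo1-positive cells. By CPM, each Rspo1-positive library was below all libraries of the other groups, with a ratio of 0.642 (95% counting interval 0.30 to 1.34) to untreated and 0.471 (0.225 to 0.947) to Rspo1-negative cells. Non-overlap of this direction was seen in 11.8% of tested genes against untreated and 20.6% against Rspo1-negative cells. With no filter on low counts, edgeR did not call Rhbg in Rspo1-positive cells against untreated (adjusted p = 0.765) or Rspo1-negative cells (adjusted p = 0.414). Rhbg shares 61.4% of its exon bases with Gm38392 on the same strand, so its counts are uncertain. Slc13a3 (ENSMUSG00000018459, chromosome 2, 165405028 to 165473230) had 0, 1 and 2 counts in untreated, 1, 2 and 1 in Rspo1-negative and 3, 2 and 0 in Rspo1-positive cells, all at or under the floor of 3 counts, so no fold is given and no change was detectable at this depth.

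Between the 2 Rspo1 gates, none of the 4 tested zonation members was called by edgeR or DESeq2 as run here without the passage block. Of all tested genes, edgeR called 24.3%. The authors' deposited DESeq2 table, of unstated design, lists Glul (-0.42, adjusted p = 0.0034), Oat (-0.38, adjusted p = 0.00957) and Slc1a2 (0.51, adjusted p = 0.00379) under the threshold. It does not list Rgn there (-0.37, adjusted p = 0.516). In the edgeR fit Oat alone among the 4 had an unadjusted p under 0.05, so the count at that level was 1. Oat was also the 1 gene of the 4 whose Rspo1-positive libraries all lay below the Rspo1-negative ones, as did 20.6% of tested genes. With passage as a block, the calls were 2, Oat (lower) and Slc1a2 (higher), beside 38.9% of genes called in that fit. The same block left the members' counts against untreated cells at 1 and 2, where it called 13.2% and 35.5% of all genes.

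Passage was tested on all 6 members, since their choice did not use it. Each passage is 1 set of 3 libraries that share a replicate number and deviate together, so passage and culture set cannot be told apart, and the p-values treat the 3 libraries of a set as independent. From passage 5 to passage 10 Slc1a2 rose by 0.80 on the log2 scale (SE 0.13, edgeR adjusted p = 0.00521) and Glul fell by 0.90 (SE 0.21, edgeR adjusted p = 0.0236), beside 9.07% of all genes called, 4.57% higher and 4.5% lower. The rise of Slc1a2 was called in all 9 alternatives, with log2 values of 0.71 to 0.90. The fall of Glul was lost without the Rspo1-negative library of passage 5 (adjusted p = 0.111), the Rspo1-positive library of passage 5 (0.132) or passage 10 (0.0750), or the untreated library of passage 10 (0.103). Means over the 3 groups were 15.1, 17.4 and 26.0 CPM for Slc1a2 and 395, 361 and 214 CPM for Glul at passages 5, 6 and 10. Lect2 and Cdo1 did not pass the test (-0.07 and 0.05, edgeR adjusted p = 0.906 and 0.892). From passage 5 to passage 6 edgeR and DESeq2 called no member, beside 2.49% of genes called by edgeR. The immune marker Cd68 was lower at passages 10 and 6 than at passage 5 (-1.39 and -1.24, edgeR adjusted p = 0.00108 and 0.00382), and its part in the passage differences was not tested. Among the members Cdo1 had the largest value from passage 5 to 6 (0.56, SE 0.18, edgeR adjusted p = 0.141) and was the 1 member with an unadjusted p under 0.05.

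Wnt feedback and stem cell targets, which report the pathway in most tissues, were read in the same libraries. Of 11 tested genes of that list, 7 rose in Rspo1-positive and 6 in Rspo1-negative cells against untreated cells, beside 3.07% and 8.0% of all tested genes called higher. No gene of the list was called lower in this fit, and the medians were 0.95 and 1.39 beside -0.01 and -0.02 for all tested genes. Under the passage block 8 and 7 rose, and with block and offset 1 was lower in Rspo1-negative cells. Axin2, the negative regulator that also drives the reporter, rose from 3.01 ± 2.56 CPM in untreated to 88.7 ± 40.6 in Rspo1-negative and 106 ± 42.3 in Rspo1-positive cells (SD, n = 3), with log2 fold changes of 4.87 (SE 0.60, edgeR adjusted p = 0.00115) and 5.13 (SE 0.61, edgeR adjusted p = 0.00131). Sp5, a transcription factor induced by Wnt signals, rose by 4.66 (SE 0.56, edgeR adjusted p = 0.00105) in Rspo1-negative and 4.83 (SE 0.56, edgeR adjusted p = 0.00125) in Rspo1-positive cells. Between the gates 1 of the 11 genes was called, and 2 with the passage block, beside 24.3% and 38.9% of all tested genes. The 1 in the main fit was Znrf3, a ligase that removes Wnt receptors, 0.95 higher in Rspo1-positive cells (SE 0.20, edgeR adjusted p = 0.00909). Its mean was 25.8 CPM in untreated, 24.3 in Rspo1-negative and 46.9 in Rspo1-positive cells. Axin2 and Sp5 were not called between the gates in the main fit.

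Another 15 tested pericentral genes, not among the 9 members, gave 0 calls in Rspo1-positive and 4 higher calls in Rspo1-negative cells against untreated cells by edgeR, with medians of 0.15 and 0.56, where 3.07% and 8.0% of all tested genes were called higher. With the GC and length offset the calls were 1 and 3 higher, and the Rspo1-negative median was 0.31. In Rspo1-positive cells 6 of the 15 had an unadjusted p under 0.05, and DESeq2 called 2 higher. The 4 called in Rspo1-negative cells were the glutathione transferase Gsta3 (1.18, SE 0.20, edgeR adjusted p = 0.00338), Lhpp (0.89), the nuclear receptor Nr1i3 (0.76) and the amino acid transporter Slc1a4 (0.71). With passage as a block, the counts became 4 higher and 2 lower in Rspo1-positive and 8 higher in Rspo1-negative cells. Nr1i3 and Slc1a4, and the classic pericentral cytochromes Cyp2e1 and Cyp1a2, were singled out after their values were seen. Both cytochromes were near 0 in all groups, with no library of Cyp2e1 above 7 counts and none of Cyp1a2 above 10. Of the 10 tested periportal genes, Ass1 and Ctsc fell in Rspo1-positive cells, and Arg1 and Asl rose while Ctsc fell in Rspo1-negative cells. Beside these, 5.21% and 21.9% of all tested genes were called in the 2 comparisons, in either direction. The 3 calls in Rspo1-negative cells were lost with the GC and length offset, where the list's median went from 0.17 to -0.10. With passage as a block, 2 periportal genes were called higher and 3 lower in Rspo1-positive cells, and 3 higher and 2 lower in Rspo1-negative cells.

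**Figure D4:**
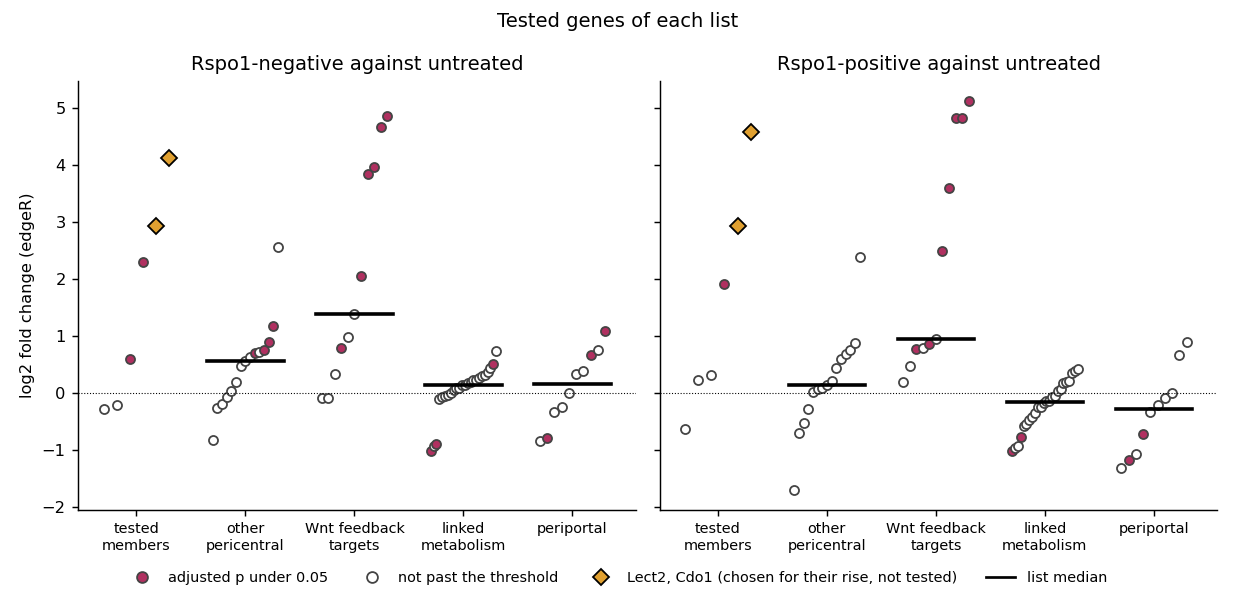
Log2 fold change of the tested genes of the members and of the other gene lists against untreated cells, for Rspo1-positive and Rspo1-negative cells; each point is a gene, filled where the adjusted p is under 0.05, and horizontal lines are list medians, drawn for all lists but the members. Diamonds are Lect2 and Cdo1, which were not tested. The Wnt feedback list has 7 and 6 filled points above 0, and the other pericentral list has none and 4.

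The genes of glutamate, ornithine, cysteine and sulfur metabolism that the members' reactions connect to were read next. Of 24 tested, 2 fell in Rspo1-positive cells, and 1 rose and 2 fell in Rspo1-negative cells against untreated cells. Among all 17011 tested genes, 5.21% were called in Rspo1-positive cells (523 higher, 363 lower) and 21.9% in Rspo1-negative cells (1361 higher, 2363 lower). With the GC and length offset the Rspo1-negative counts were 0 higher and 1 lower. Gclc, of the first step of glutathione synthesis, which uses the cysteine that Cdo1 oxidises, fell in both, by 1.01 each (SE 0.13, edgeR adjusted p = 0.00197 and 0.00135). Sqor, which oxidises sulfide, fell in Rspo1-positive cells by 0.77 (SE 0.18, edgeR adjusted p = 0.0337), and the aspartate aminotransferase Got2 rose in Rspo1-negative cells by 0.52 (SE 0.15, edgeR adjusted p = 0.037). With passage as a block, 5 fell in Rspo1-positive cells, and 2 rose and 3 fell in Rspo1-negative cells. That fit called 13.2% and 35.5% of all genes.

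On the length-scaled FPKM scale the order of the members in untreated cells was Glul (138), Oat (21.7), Slc1a2 (1.59), Cdo1 (1.55), Rgn (0.174), Lect2 (0.124), Rhbg (0.105), Slc13a3 (0.00846) and Tbx3 (0.00596). Slc1a2 and Cdo1 did not differ there beyond their spread (SD 0.559 and 0.695, n = 3), nor did Rgn and Lect2 (SD 0.0461 and 0.0657) or Lect2 and Rhbg (SD 0.0126 for Rhbg). With Rspo1, Cdo1 moved to the position after Oat and Lect2 moved above Slc1a2 in both gates. Lect2 and Slc1a2 were then at 2.26 ± 0.555 and 1.42 ± 0.374 FPKM in Rspo1-negative and at 3.04 ± 0.243 and 1.99 ± 0.499 FPKM in Rspo1-positive cells. Glul remained first and Oat second in every group.

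The genes whose log2 CPM followed each tested member most closely over the 9 libraries were found by Pearson's r among 11661 genes. Glul was followed by Teddm2 (0.981), which overlaps it on the opposite strand, and by the acute-phase gene Crp (0.973). Oat was followed by Rdm1 (0.988) and Fgfrl1 (0.975), and Slc1a2 by Heg1 (0.973) and Fkbp14 (0.971). Cdo1 and Lect2 had the same nearest gene, Gm37509 (0.989 and 0.986), followed by Stra6 (0.985) for Cdo1 and Nmral1 (0.975) for Lect2. Rgn was followed by Etv4 (0.962) and Hunk (0.959). For Cdo1, Lect2 and Rgn these values mostly carry the gap between untreated and Rspo1 libraries, and all of them share the same 9 libraries and passages.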

How the data were processed

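RNA of 9 sorted samples was read as single-end 75 bp reads from 100 ng of total RNA, per the labels' protocols. Per the submitters' processing notes, Trimmomatic 0.35, FastQC 0.11.2, STAR 2.5.1b, featureCounts and DESeq2 were used on GRCm38. The strand setting and annotation are not given in the sources used here. Each deposited file gives a raw count and an FPKM value for every gene, per its header. The authors also deposited tables with log2 fold changes and p-values for the 3 comparisons, whose design formula is not stated.

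The tests used these counts and edgeR 4.0.16 in R 4.3.3 (filterByExpr with minimum count 10 and minimum total 15, leaving 17011 genes; TMM scaling; quasi-likelihood F-test; all 9 libraries; Benjamini-Hochberg adjustment over all tested genes; threshold 0.05). The SE is the log2 fold change divided by the square root of F. CPM uses TMM-scaled library sizes, and log2 CPM a prior count of 2. Passages were compared in a fit of group and passage. Counting intervals are 95% and cover counting error only. Alternatives used DESeq2 1.42.0, upper-quartile scaling, DESeq2's size factors, no filter, the 6 compared libraries alone, a passage block, and an offset for GC content and length of the longest transcript (smoothed with mgcv 1.9.3, for 99.9% of tested genes). Tables were made with Python 3.11.15, and the fits were tested on simulated data. FPKM values entered no test.

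The replicate numbers mark shared passages, per the labels. Deviations from the group means correlated at 0.123 to 0.573 in the 9 same-passage pairs of libraries and at -0.70 to 0.0826 in the 27 others. Taking deviations from means of 3 libraries pushes the 27 others down in advance, most of all the pairs within a group. The pairing is therefore read only from the positive values of the same-passage pairs. Blocked values are given where they change a member's call or a printed count of a list's calls.

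The members and gene lists were chosen with earlier results of these data known. The naming rule takes all members, the up to 2 genes with the largest called rise and fall in each list and comparison, any marker gene, Axin2, and the 2 genes nearest each member by r. The text says where a gene was singled out otherwise, and not every gene the rule takes is reported here.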

Additional observations from a re-analysis of the deposited data

How the results depend on the processing

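Of 360 recomputed member values, 332 were stable, 8 lost a call, 5 gained one, 13 changed sign and 2 moved further than their spread. Stable meant the same direction and side of the threshold. For Lect2 and Cdo1 in the group comparisons, which have no test, it meant a move smaller than their SD. Cdo1 between the gates ranged from -0.16 to 0.093, and its changes of sign are not among the 13. Apart from Slc1a2, every counted change of sign came from leaving out 1 library and none concerned a called value. Slc1a2 in Rspo1-negative against untreated cells became 0.65 with the GC and length offset, 0.63 with the replicate block and offset (adjusted p = 0.00865), and ranged from -0.40 to 0.11 leaving out 1 library (0.11 without the untreated one of passage 10). Between the gates Slc1a2 became -0.38 with the offset and -0.36 with block and offset. Glul in Rspo1-negative against untreated cells ranged from -0.56 to 0.045 (without the untreated library of passage 6), and from passage 5 to 6 from -0.55, a call (adjusted p = 0.0382) made without that same library, to 0.025. From passage 5 to 10, leaving out 1 library gave -0.11 to 0.18 for Cdo1 and -0.26 to 0.15 for Lect2, and from passage 5 to 6 it gave -0.18 to 0.33 for Rgn.

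The number of genes called moved more. Rspo1-positive against untreated gave 886 genes, 1506 by DESeq2, 1446 with no filter, 2247 with the replicate block, 2939 with block and offset, and 390 to 899 leaving out 1 library. Rspo1-negative against untreated gave 3724, 1463 with the offset, 2299 from the 6 libraries alone, 6039 with the replicate block and 1800 to 3772 leaving out 1 library. Its share of higher calls was 36.5%, and 49.5% with upper-quartile scaling. The gates gave 4141, 1418 with the offset, 6624 with the replicate block and 2061 to 4068 leaving out 1 library. Passage 10 against 5 gave 1543, 2784 with no filter and 405 to 702 leaving out 1 library, and passage 6 against 5 gave 423, 851 by DESeq2, 1193 with no filter and 105 to 846. Members called in Rspo1-positive against untreated cells were 1, 2 with block and offset, and 0 to 1 leaving out 1 library, in Rspo1-negative cells 2, 3 with block and offset or with no filter, and 1 to 2 leaving out 1 library, and between the gates 0, 2 with the block and 1 with block and offset. Passages 10 and 6 against 5 had 2 and 0 members called, and 1 to 2 and 0 to 1 leaving out 1 library. The cause was not tested. Counts of 0 to 12 limit Tbx3, Rhbg and Slc13a3.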

Other observations

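Genes next to the members in the same pathways also differed between the culture sets of passages 5 and 10, where passage and culture set cannot be told apart. Slc1a1, a glutamate transporter of the same family as Slc1a2, rose from passage 5 to passage 10 by 1.24 on the log2 scale (SE 0.19, edgeR adjusted p = 0.00366), as Slc1a2 did. Among other pericentral genes, Aldh1a1, a retinaldehyde dehydrogenase, fell by 1.17 (SE 0.15, edgeR adjusted p = 0.00135), Cyp2a5 fell by 2.59 (SE 0.50, edgeR adjusted p = 0.0106) and the sterol hydroxylase Cyp27a1 rose by 1.35 (SE 0.26, edgeR adjusted p = 0.00979). Cyp2a5 had few counts: 50, 23 and 16 at passage 5, and 5, 5 and 2 at passage 10 (untreated, Rspo1-negative, Rspo1-positive). Of the 24 genes of linked metabolism 2 rose and 4 fell, beside 4.57% higher and 4.5% lower among all tested genes. Cth, which makes the cysteine that Cdo1 oxidises, fell by 1.84 (SE 0.26, edgeR adjusted p = 0.00266), and Arg2, an arginase that yields the ornithine used by Oat, fell by 1.16 (SE 0.15, edgeR adjusted p = 0.00135). The glutamine transporter Slc38a2 rose by 0.87 (SE 0.12, edgeR adjusted p = 0.00251), and Csad, which continues from the product of Cdo1 towards taurine, rose by 0.49 (SE 0.11, edgeR adjusted p = 0.0259).

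Against untreated cells Slc1a1 stood 1.30 higher in the Rspo1-positive and 1.05 higher in the Rspo1-negative group on the log2 scale (edgeR adjusted p = 0.135 and 0.106). Of the 2 tested genes in the list of the members' paralogs, 1 was called higher in each of these comparisons by DESeq2 and by edgeR with passage as a block. That edgeR fit called 13.2% and 35.5% of all genes, and DESeq2 called 1506 and 4714 of 17011.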
